A study of Homo sapiens with 2 samples.

Results

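The phagocyte NADPH oxidase genes CYBB, CYBA, NCF1, NCF4 and RAC2 were examined for chromatin bound in GFI1 immunoprecipitates of NB4 cells. Every peak was taken whose midpoint lay inside the annotated span of 1 of these 5 genes, or within 50 kb of it. This gave 8 of 15249 peaks: 3 of the 7687 found with antibody ab21061 and 5 of the 7562 found with antibody sc8558. NB4 is an established cell line from acute promyelocytic leukemia with the PML-RARA fusion, and the labels give no treatment other than crosslinking. Both libraries are labelled as immunoprecipitates of GFI1, a DNA-binding transcriptional repressor of blood progenitors, with antibodies to different parts of the protein. There was 1 library for each antibody, with no replicate, so each value below describes these libraries and no test between them was possible.

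The labels disagree in places. The antibody labels name GFI1 for both libraries, the title of the sc8558 library reads GFI2, and the protocol text names antibodies to the PML/RARα fusion protein. Each library is therefore called by its antibody's catalogue number. The depth of sequencing is unknown, and no input or control library was analysed here. Each peak's score was assigned by the authors' peak caller. It ran from 50.01 to 3100 in each list and is used here mainly to rank peaks within a list. It also enters the bands of 10 score units, the cutoff of 100 and the measure of likeness to CYBB described below.

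The oxidase makes superoxide in neutrophils, monocytes and macrophages when they take up microbes. CYBB encodes NOX2, the membrane subunit that carries electrons across the membrane, and CYBA encodes the partner that holds it stable there. NCF1 and NCF4 encode cytosolic subunits that move to the membrane on activation, and RAC2 encodes a small GTPase of blood cells that completes the active enzyme. Inherited loss of CYBB, CYBA, NCF1 or NCF4 causes chronic granulomatous disease. Promyelocytes gain the oxidase as they mature into neutrophils, and NB4 cells gain it on treatment with retinoic acid.

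A region marked by both antibodies was found at CYBB and at no other member. CYBB had 3 peaks of each antibody in its window. NCF1 had 2 sc8558 peaks and no ab21061 peak. CYBA, NCF4 and RAC2 had no peak of either antibody. Thus 1 of 5 members had an ab21061 peak, where 31.7% of all 20037 protein-coding genes did under the same rule, and 2 had an sc8558 peak, where 32.4% of all genes did. A shared region, made by merging peaks of both lists that overlapped by at least 1 bp, lay within 50 kb of 1 of 5 members and of 24.3% of all genes. The 3 members without any peak stand beside 61.7% of all genes in that state. These counts are near the background of all genes, so the set as a whole does not stand apart. A shared region lay inside the gene span at 1 of 5 members, against 8.35% of all genes.

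**Figure D1:**
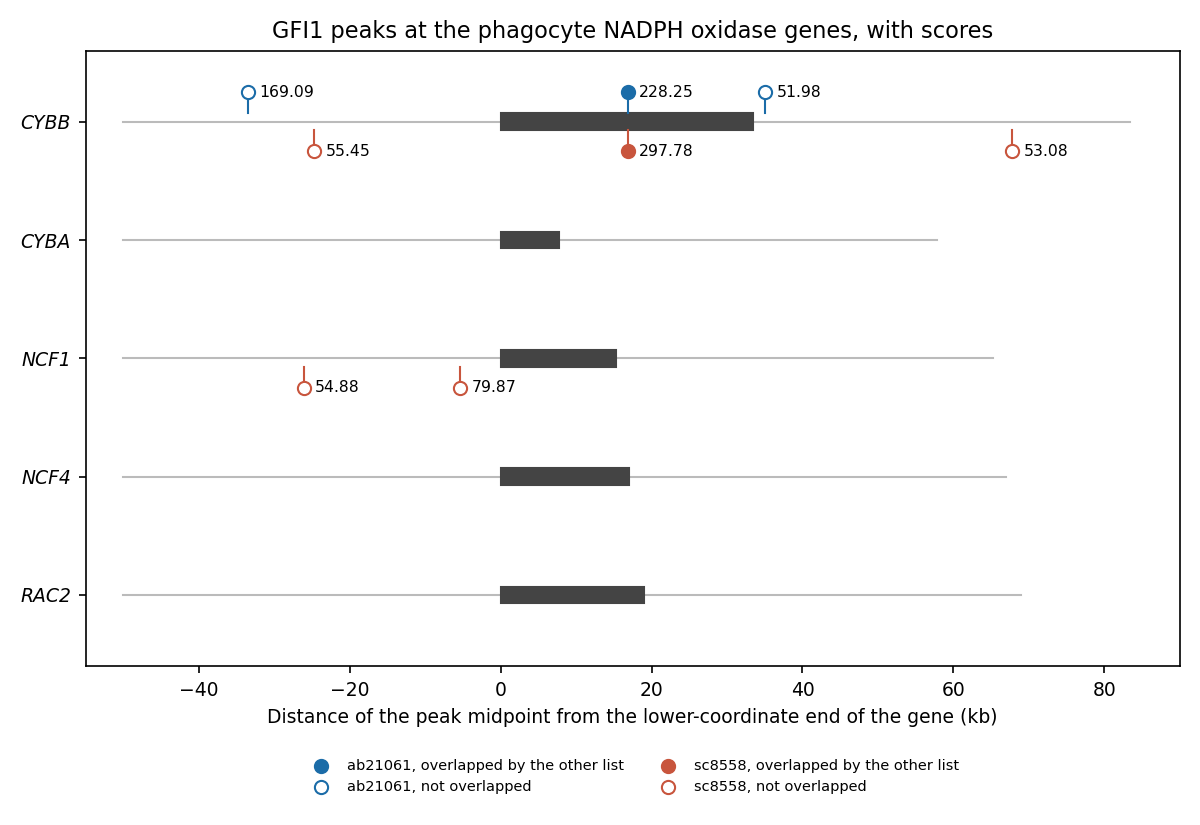
Peaks at the 5 oxidase genes. The x axis gives the distance in kb of each peak's midpoint from the lower-coordinate end of the gene, which is the start of CYBB and NCF1; dark bars are gene spans, grey lines the windows of 50 kb on either side, and numbers are scores. CYBB holds the only pair of overlapping peaks (filled circles), and the tracks of CYBA, NCF4 and RAC2 are empty.

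CYBB lies on chromosome X from 37780059 to 37813461 (hg38), on the plus strand. Its shared region covered 37796419 to 37797406, with its centre 16.9 kb after the gene start, 50.5% of the way along the gene. The gene table used gives no exons, so the region cannot be assigned to an exon or an intron here. The ab21061 peak, from 37796526 to 37797302, was 777 bp wide and scored 228.25. The sc8558 peak, from 37796419 to 37797406, was 988 bp wide and scored 297.78. The narrower ab21061 peak lay wholly within the sc8558 peak, and their midpoints were 1.5 bp apart.

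Both peaks were high in their lists. The ab21061 peak ranked 838, with 10.9% of the list at or above its score, and the sc8558 peak ranked 517, with 6.84% at or above. When the 4853 shared regions were ordered by the worse of their 2 ranks, the CYBB region stood at 659, within the first 13.6%. It stood at 297 of the 2166 shared regions with a midpoint inside a protein-coding gene, and at 4 of the 61 shared regions on chromosome X. Scores of this size were nearly always matched by the other antibody: of 838 ab21061 peaks at or above this score 1 was not overlapped, and of 517 sc8558 peaks at or above its score 1 was not.

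**Figure D2:**
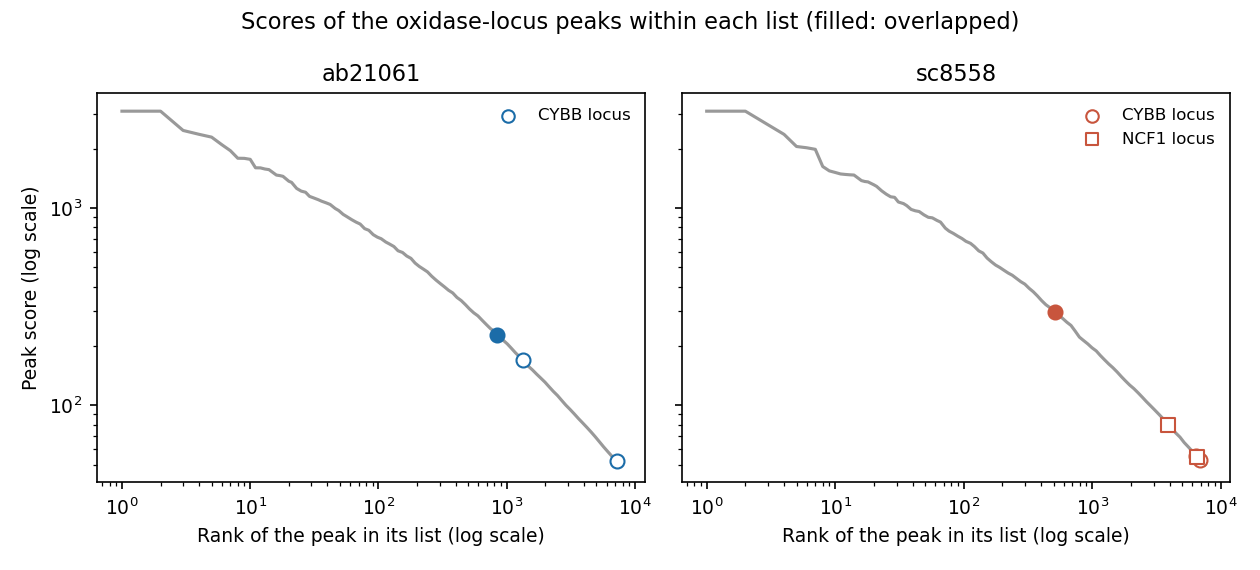
Score of each peak at the oxidase loci against its rank in its own list, both on log scales, with the grey line tracing all peaks of that list. Circles are peaks at CYBB and squares peaks at NCF1, filled where the other list overlaps; the filled CYBB peaks sit at ranks 838 and 517, and the sc8558 peaks without overlap sit at scores of 79.87 or less.

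The other peaks around CYBB were each found with a single antibody. The strongest was an ab21061 peak before the gene, from 37746080 to 37747000, centred 33.5 kb below the start and 14.4 kb from XK, a blood group gene that is the nearest protein-coding gene to it. It scored 169.09 and ranked 1339. Of the 1339 ab21061 peaks at or above that score, 7 (0.523%) were not overlapped by an sc8558 peak, and this was 1 of them. It had the lowest score of those 1339, so that share rests mostly on stronger peaks. Within 10 score units of it, 218 of 228 ab21061 peaks (95.6%) were overlapped. The closest sc8558 peak, from 37755100 to 37755602, was 8.10 kb away and scored 55.45, near the lower limit of its list.

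After the gene, an ab21061 peak from 37814863 to 37815419 was centred 1.68 kb beyond the end of CYBB and scored 51.98. An sc8558 peak from 37847604 to 37848064 was centred 34.4 kb beyond it and scored 53.08. Both were among the weakest peaks of their lists, with 94.2% and 91.5% of the peaks at or above them. Within 10 score units of these values, 32.4% of the list was overlapped for ab21061 and 33.9% for sc8558, so a lone peak was the usual case at that level. The sc8558 peak lay just upstream of the start of DYNLT3, at 37847571, without reaching it. DYNLT3 encodes a light chain of the dynein motor and is read from the opposite strand towards CYBB. Of the 8 peaks at the oxidase loci only this sc8558 peak overlapped a RefSeq promoter window (250 bases before to 50 after a start). Of all 34943 promoter windows, 1.80% were overlapped by an sc8558 peak and 1.75% by an ab21061 peak. These are shares of windows and not of peaks. The share of all peaks that overlap a window was not computed, so the count of 1 among 8 peaks has no matching background here. No peak followed within 500 kb: the first peaks outside the window lay 513.5 kb from CYBB in each list, and scored 60.64 with ab21061 and 74.4 with sc8558.

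The 250 bases before the starts of CYBB and DYNLT3 are shown because they lead up to the gene starts on either side of the shared region. No peak of either antibody overlapped the first sequence, and the lone sc8558 peak overlapped part of the second. They are from RefSeq (GRCh38.p14), at chrX:37779809-37780058 on the plus strand and chrX:37847572-37847821 on the minus strand, and run 5′ to 3′ up to the base before the start. Capitals mark matches to AATC, the core of the GFI1 site, or to GAGGAAG, a site form of the myeloid factor PU.1, on either strand (GATT and CTTCCTC on the opposite strand).

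CYBB: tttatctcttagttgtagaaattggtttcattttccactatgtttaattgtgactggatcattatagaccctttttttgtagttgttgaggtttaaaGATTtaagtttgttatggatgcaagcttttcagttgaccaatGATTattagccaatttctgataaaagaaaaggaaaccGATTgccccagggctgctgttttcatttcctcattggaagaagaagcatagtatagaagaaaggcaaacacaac
DYNLT3: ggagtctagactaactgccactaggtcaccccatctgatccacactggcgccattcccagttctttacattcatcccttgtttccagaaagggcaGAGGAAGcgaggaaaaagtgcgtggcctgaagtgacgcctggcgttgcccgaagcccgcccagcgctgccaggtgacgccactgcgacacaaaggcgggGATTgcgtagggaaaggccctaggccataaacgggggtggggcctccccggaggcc

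The CYBB sequence held 3 AATC matches, whose first bases lay 153, 111 and 74 bases before the start, and was 34.0% G and C, against a median of 58.0% over the promoter table. AATC is short, and 64.8% of the 34943 promoters of this length held it on 1 strand or the other. The DYNLT3 sequence held 1 AATC match, 56 bases before the start, and 1 GAGGAAG match, 155 bases before it, a form held by 11.3% of promoters. The longer form AAATCAC, which contains AATC and was held by 2.74% of promoters, was in neither window, nor were TGANTCA (AP-1, 6.59%), TTGCNNAA (C/EBP, 9.06%) or TGTGGT (RUNX, 11.0%). AGGTCA, core letters bound by nuclear receptors (12.1%), was in the DYNLT3 window alone, 228 bases before the start. These are matches of letters and not sites of binding. The sequence under the shared region itself is not shown, since no genome was used here.

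By a fixed measure of likeness, the genes with a pattern closest to CYBB were sought among 3681 other protein-coding genes with 1 shared region in their window. The measure was the sum of the absolute log2 differences of the best score in each list, over 2 libraries only. DYNLT3 came first at 0, because its window takes in the same region, 41.9 kb from its span. KCNE3, a potassium channel subunit gene, and LIPT2, a lipoyl transferase gene, came next at 0.057, with best scores of 236.35 and 299.21. These neighbours on chromosome 11 also share a single region, from 74492437 to 74493887, whose midpoint is inside the span of LIPT2 (which ends at 74493724) and 25.6 kb from KCNE3.

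NCF1, on chromosome 7 from 74774011 to 74789315 on the plus strand, had sc8558 peaks only. The nearer, from 74768020 to 74769296, was centred 5.35 kb before the gene start, was 1277 bp wide and scored 79.87, at rank 3910. The other, from 74747587 to 74748274, was centred 26.1 kb before the start, inside GTF2I, a transcription factor gene, and scored 54.88. Among sc8558 peaks within 10 score units of the nearer peak, 60.7% were overlapped by ab21061. No ab21061 peak lay in the window. The first outside it was 59.2 kb beyond NCF1, from 74848150 to 74848940, with a score of 80.51, while the first sc8558 peak outside was 293.2 kb away and scored 82.56.

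NCF1 has 2 near-identical pseudogene copies on the same chromosome, NCF1B (73220639 to 73235945) and NCF1C (75156578 to 75171998), and peaks lay at a like distance from all 3. At NCF1B a peak of each antibody was centred below the lower end, the ab21061 peak 5.40 kb away with a score of 84.89 and the sc8558 peak at 5.49 kb with a score of 123.88, and they overlapped. At NCF1C an sc8558 peak without overlap was centred 5.32 kb above the upper end and scored 73.77. The strand of the copies was not in the tables used. NCF1B also had an overlapping pair above its upper end, at 1.42 kb with ab21061 (110.94) and 1.403 kb with sc8558 (52.88). NCF1 had no peak within 10 kb above its upper end. NCF1C had no peak within 10 kb other than the sc8558 peak at 5.32 kb. Without the strand of the copies, the matching sides could not be set. How the authors placed reads that fit several copies is not stated in the labels or files used here, so which copy the reads of the NCF1 peak came from is uncertain, and its part in these values was not tested.

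**Figure D3:**
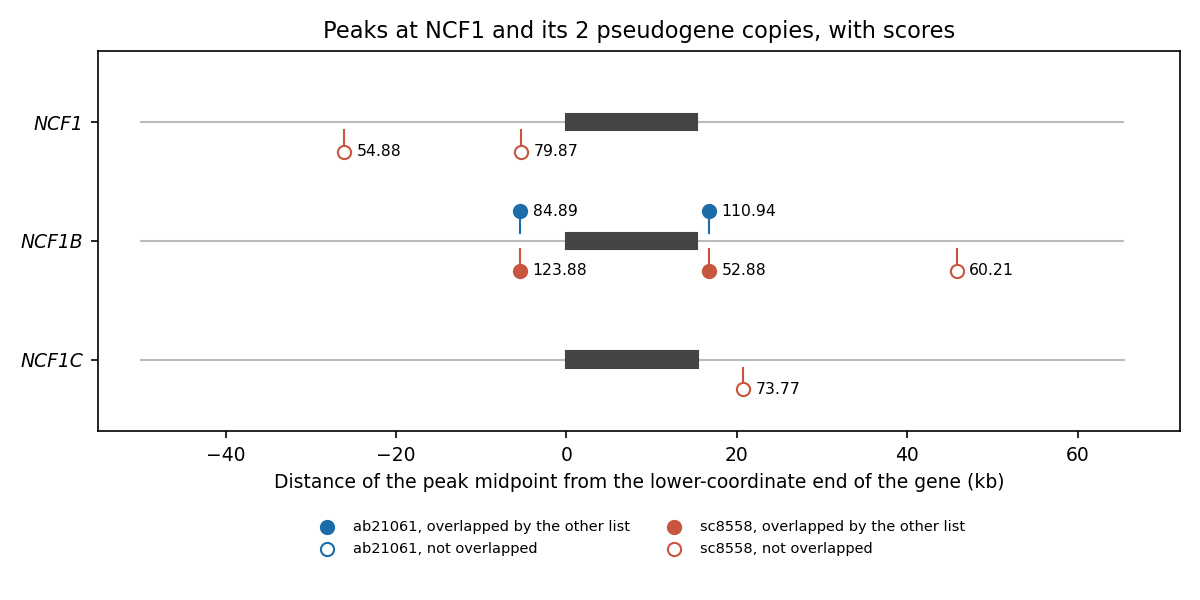
Peaks at NCF1 and the pseudogenes NCF1B and NCF1C, drawn with the distance in kb from the lower-coordinate end of each gene on the x axis, dark bars for gene spans and scores beside the circles. A peak stands about 5 kb outside each gene span, below NCF1 and NCF1B and above NCF1C; filled circles, where both antibodies overlap, occur at NCF1B alone.

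The 250 bases before the start of NCF1, at chr7:74773761-74774010 on the plus strand, are shown because the nearer peak lay upstream of them and did not reach them. Capitals are as above.

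NCF1: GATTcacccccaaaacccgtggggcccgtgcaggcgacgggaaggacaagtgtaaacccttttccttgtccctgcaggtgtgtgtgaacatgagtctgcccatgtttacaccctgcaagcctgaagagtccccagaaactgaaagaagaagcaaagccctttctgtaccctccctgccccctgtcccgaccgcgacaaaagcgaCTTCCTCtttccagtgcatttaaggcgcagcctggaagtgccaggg

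This window held GAGGAAG once, on the opposite strand, 46 bases before the start, and AATC once, at its very first base, 250 bases before the start. It held none of the other 5 motif forms, and no peak of either list overlapped it.

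CYBA, NCF4 and RAC2 lay in long stretches without any peak. CYBA, on chromosome 16 from 88643289 to 88651053, was 381.0 kb from the nearest ab21061 peak (score 55.71) and 618.0 kb from the nearest sc8558 peak (score 125.65). NCF4, on chromosome 22 from 36861006 to 36878015, was 455.6 kb from the nearest ab21061 peak (62.03) and 455.4 kb from the nearest sc8558 peak (133), and the first of these, from 36404982 to 36405785, lay within the second, from 36404879 to 36406316. RAC2, on chromosome 22 from 37225270 to 37244269, was 348.3 kb from the nearest peak of each list, with scores of 92.02 and 90.29. Median distances over all protein-coding genes were 119.7 kb for ab21061 and 115.9 kb for sc8558. Taking the nearest peak of either list, 15.3% of all genes were at least as far from one as CYBA, 12.5% as NCF4 and 16.9% as RAC2.

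**Figure D4:**
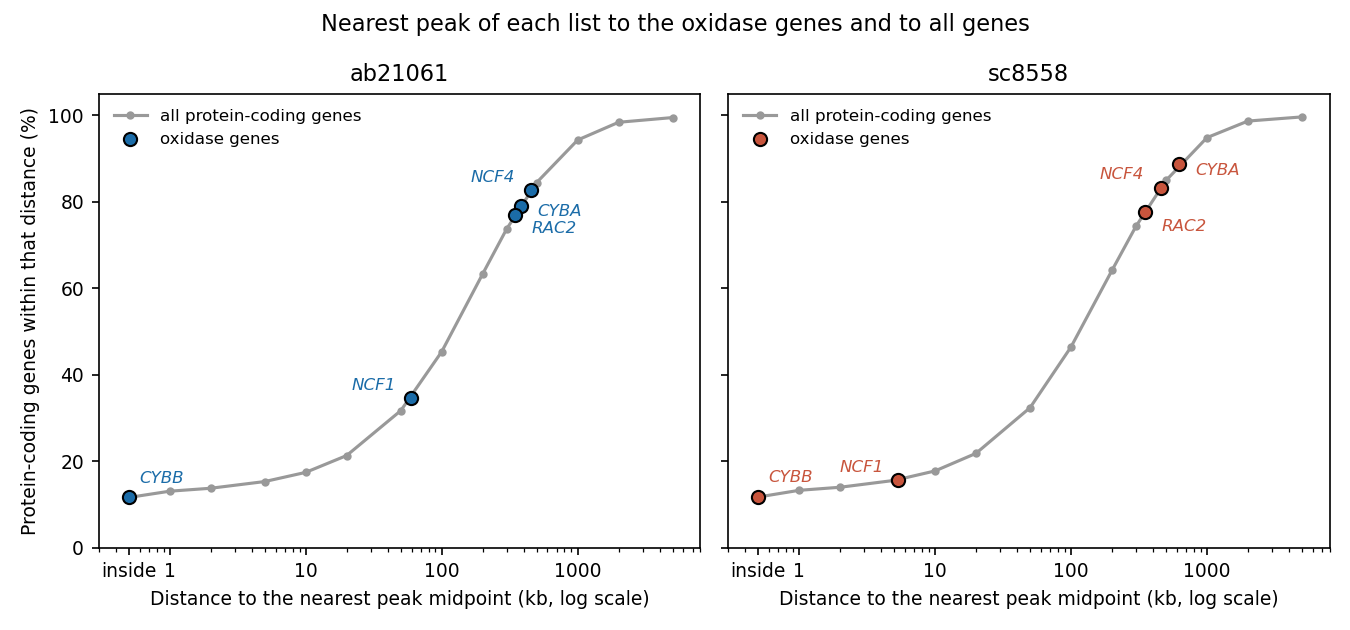
Cumulative share of all 20037 protein-coding genes (y axis, %) by distance to the nearest peak midpoint (x axis, kb, log scale, with genes that hold a midpoint drawn at "inside"), for each antibody, and the 5 oxidase genes as large points. CYBB sits at the left in both panels, NCF1 at 59.2 kb for ab21061 and 5.35 kb for sc8558, and CYBA, NCF4 and RAC2 lie at 348.3 kb or more.

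NCF4 and RAC2 are 347.3 kb apart and fell in the same stretch without peaks, from 36406317 to 37592167 (1186 kb), which held 23 whole protein-coding genes. Among these are CSF2RB, the beta chain shared by the receptors for GM-CSF and several interleukins, IL2RB, another cytokine receptor chain, and CYTH4, a gene of an exchange factor for ARF GTPases in blood cells. CYBA fell in a stretch from 88025692 to 89031613 (1006 kb) with 18 whole protein-coding genes, including CBFA2T3, a corepressor gene of the ETO family. These neighbours were chosen after their position was seen. Of 10263 stretches between peaks of the combined lists, 5.72% were at least as long as that of NCF4 and RAC2 and 7.0% as long as that of CYBA, against a median of 72.6 kb. These shares count each stretch once, while a gene falls more often in a long stretch than in a short one. They therefore do not say how unusual the stretches are for a gene. The shares over all genes given above, 12.5% to 16.9%, are the ones to read these 3 genes against. The promoter table had entries for CYBB, CYBA and NCF1, 3 of 5 members. The CYBA window of 250 bases was 73.6% G and C and held none of the 7 motif forms.

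Other genes of the oxidase system were taken from a list of 26: homologs of the catalytic subunit and their partners, RAC1, RAC3 and RAP1A, activators and inhibitors of RAC proteins, kinases of the pathway, CYBC1, the proton channel gene HVCN1, and enzymes that use or remove the oxidants. A shared region lay within 50 kb of 10 of 26 (38.5%), beside 24.3% of all genes, and inside the span of 6 of 26 (23.1%), beside 8.35% of all genes. The median was 0 shared regions per gene in the list and over all genes. No peak of either list was near 11 of 26 (42.3%, beside 61.7% of all genes), and 5 had only peaks without overlap. The median span was 31.3 kb in the list and 24.1 kb over all genes, and a longer span gives a larger window. The 6 genes with a region inside spanned 263.9 kb (PREX1), 208.0 kb (PAK1), 84.65 kb (VAV1), 56.27 kb (HVCN1), 33.13 kb (CAT) and 29.44 kb (RAC1). The long genes PRKCB (384.6 kb), NOX4 (265.2 kb) and RAP1A (174.7 kb) had no shared region. The shares were not adjusted for span, and the part of span in them was not tested.

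Of the genes in the list that act on or beside RAC proteins, RAC1, the widely expressed relative of RAC2, had 3, where RAC2 had 0. The first, on chromosome 7 from 6372926 to 6374447, ended 80 bp below the lower end of RAC1 and scored 170.93 with ab21061 and 158.85 with sc8558. The second, inside RAC1, scored 84.21 and 59.7. The third, from 6449529 to 6451622, was 46.6 kb beyond RAC1 at DAGLB, a lipase gene, and had the highest scores of the list, 288.82 and 508.39.

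PREX1, which encodes an exchange factor that loads RAC proteins with GTP, had 4 shared regions, all inside its span of 263.9 kb, the strongest scoring 162.3 and 190.87. VAV1, another exchange factor gene of blood cells, had 1 inside its span (239.49 and 172.24) and 1 beyond it, 34.9 kb away at ADGRE1 (91.72 and 69.11). PAK1, a kinase gene whose product is switched on by RAC, had 1 inside (81.57 and 68.3). ARHGDIB, which encodes an inhibitor that holds RAC proteins in the cytosol, had 1 located 21.1 kb beyond its upper end, at PDE6H (84.01 and 175.2). The strongest ab21061 peak in the ARHGDIB window was a different one, from 14980767 to 14981798, which scored 116.19 and was not overlapped by sc8558. The RAC genes' other inhibitor in the list, ARHGDIA, and RAC3 had no peak.

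**Figure D5:**
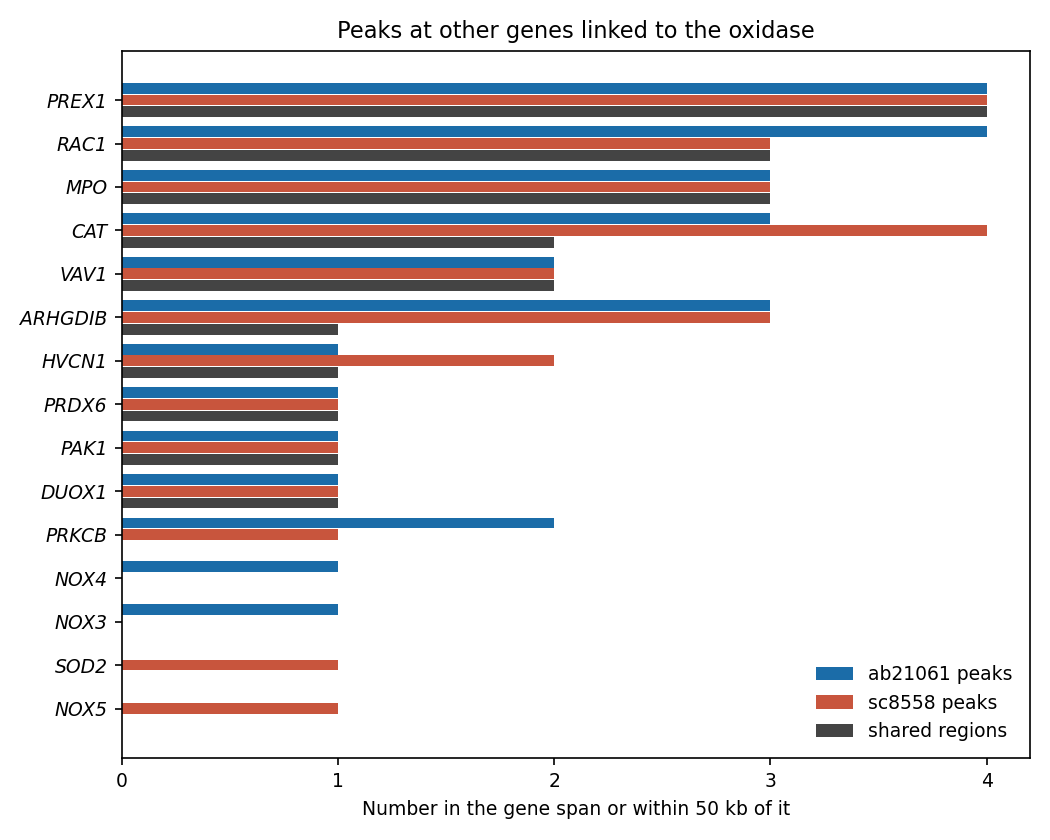
Number of ab21061 peaks, sc8558 peaks and shared regions (x axis) in the span or within 50 kb of each of the 15 listed genes that had any peak. PREX1 has 4 shared regions, RAC1 and MPO 3 each, and the bottom 5 genes have peaks but no shared region.

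Among the enzymes that handle the oxidants, MPO, the neutrophil granule peroxidase that turns hydrogen peroxide into hypochlorous acid, had 3 shared regions, all above its upper end. The nearest, at 1.28 kb, scored 166.44 and 139.59, and the others, at 13.0 and 16.0 kb, lay closer to or in TSPOAP1. CAT, the catalase gene, had 2: the stronger, 12.7 kb below the lower end, scored 191.55 and 195.93, and the other, inside the gene, scored 78.5 and 69.09. PRDX6, a peroxiredoxin gene, had 1 at 45.9 kb, by TNFSF4 (80.13 and 53.41). Apart from these enzymes, HVCN1, the proton channel that balances the charge moved by the oxidase, had 1 inside its span (64.33 and 57.79).

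Of the 10 NOX and DUOX genes in the list, which encode homologs of CYBB and their partners, 1 had a shared region, DUOX1, and it lay 39.8 kb beyond the gene at SHF (139.31 and 199.63). NOX3 had a lone ab21061 peak inside its span with a score of 165.16, while NOX4 (51.35, ab21061) and NOX5 (70.31, sc8558) had weaker lone peaks. CYBC1, whose product is needed for making the CYBB protein, and RAP1A, a GTPase that associates with the membrane subunits, had none.

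The antibodies overlapped at 1 of 3 ab21061 peaks of the oxidase loci (33.3%, exact Clopper-Pearson 95% interval 0.840 to 90.6%) and at 1 of 5 sc8558 peaks (20%, 0.505 to 71.6%). Over the whole lists the shares were 63.7% with ab21061 and 65.0% with sc8558, which lie inside these intervals. With 3 and 5 peaks the intervals are wide enough to hold most shares, so nothing is concluded from this. Both overlapped peaks form the same CYBB region. The share overlapped also differed with score: among ab21061 peaks within 10 score units it was 100% around 228.25 and 32.4% around 51.98. The intervals cover counting error only.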

How the data were processed

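Chromatin immunoprecipitates of NB4 cells were sequenced by the submitters, 1 library for each of 2 antibodies. The tools Bowtie2 2.2.9 and MACS 1.4.2 and the build hg38 were named, per the submitters' processing notes. Options, any control and the handling of reads with several matches are not stated in the labels or files used here. The authors deposited a score per peak, which MACS derives from a p-value, and scores are not comparable between libraries. Peaks were listed per library.

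Starts were made 1-based. Genes came from a RefSeq table (GRCh38.p14) with 20037 placed protein-coding genes and no exons, and strands and promoters from a RefSeq promoter table. A peak or merged shared region was assigned by its midpoint to a gene span with 50 kb on either side, and the same rule was run on all protein-coding genes. Depth is unknown. No test between antibodies was made, since each had 1 library. Counting was tested on simulated peaks at 200 genes. Genes named are the 5 members, the listed related genes with shared regions, the genes at or nearest to the members' peaks and the 3 genes most like CYBB. Genes named besides these, among them related genes without a shared region, were named after their values were seen. Members and lists were chosen with earlier results of these data known. An item of the related list is not reported here, and counts over the list leave it out. Alternatives were other windows, a score of 100 or more, any overlap with the window and stricter overlap. Scripts ran under Python 3.11.15 with pandas 2.3.3, numpy 2.4.6, matplotlib 3.10.9 and scipy 1.17.1.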

Additional observations from a re-analysis of the deposited data

How the results depend on the processing

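The shared region at CYBB, and the count of 1 member with such a region, were found under all 7 alternatives: the gene span only, 10 or 100 kb on either side, a score of 100 or more, any overlap with the window, 50% overlap of each peak, and midpoints within 500 bp. The region lies inside the gene and both its scores exceed 100. Its 777 bp peak lies within the 988 bp peak, with midpoints 1.5 bp apart. None of the alternatives could therefore have removed it. Other counts moved with the window and score, which by construction change how many peaks can enter. With the gene span only, the oxidase genes had 1 ab21061 and 1 sc8558 peak, 6 related genes had a shared region, and so did 8.35% of all protein-coding genes. With 10 kb on either side there were 2 sc8558 peaks, and the share of all genes was 12.8%. With 100 kb there were 6 ab21061 peaks, the 3 added ones lying around NCF1, with 17 related genes and 35.9% of all genes. At a score of 100 or more 1 sc8558 peak was left, with 6 related genes and 12.6% of all genes. With 50% overlap the share of all genes was 23.7%. The remaining 25 of 38 alternative values stayed within 1.5 times the main count or within the interval of the main share. Among them, the related genes with a shared region fell from 10 to 8 of 26 with 50% overlap. With 1 library per antibody no library could be left out. Since depth is unknown, a gene without a peak, or a peak of 1 antibody alone, cannot be read as a lack of binding.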

Other observations

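Some loci of the related list carried peaks of 1 antibody that no peak of the other overlapped. PRKCB, which encodes a kinase that phosphorylates the NCF1 protein, had 2 ab21061 peaks inside its span, 17.3 and 123.8 kb above the lower end (scores 58.67 and 51.51), and 1 sc8558 peak 27.8 kb above it (103.27). At ARHGDIB an sc8558 peak from 14948560 to 14949131 on chromosome 12 (61.72) overlapped a RefSeq promoter window inside the gene span. Another sc8558 peak (51.23) was centred 0.212 kb beyond the upper end of ARHGDIB, and no ab21061 peak lay at either. Before CAT, an ab21061 peak from 34426881 to 34427687 (138.02) lay beside the shared region with no sc8558 peak over it, and an sc8558 peak from 34421817 to 34422665 (128.54) lay on its other side with no ab21061 peak over it. SOD2, the mitochondrial superoxide dismutase gene, had 1 sc8558 peak inside its span (70.15) and no ab21061 peak.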
